A study of Mus musculus with 20 samples.

Results

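The 37 genes described here encode the receptors for glutamate and the proteins that hold them in place at excitatory synapses of the mouse hippocampus. They were taken from a list of symbols matched to the gene identifiers of the count files. All 37 were found among the 57126 identifiers counted, and all 37 passed the filter on low counts that 18648 genes passed. The list holds 4 subunits of AMPA receptors, 6 of NMDA receptors, 5 of kainate receptors, 1 delta receptor, 6 metabotropic receptors, and 15 scaffold, kinase and adhesion genes of the postsynaptic density.

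RNA was sequenced from the hippocampus of 20 male C57BL/6 mice in 4 groups of 5, each library labelled as a biological replicate. Mice were wild-type or homozygous for the GRA knockin, an allele of Nr3c1 (the glucocorticoid receptor gene) with a replaced exon 2. In the knockin exon the start codon of the full-length receptor GRA is kept and those of the shorter forms GRD3, GRD2, GRD1, GRC3, GRC2, GRC1 and GRB are mutated, so that the receptor is altered in every cell that makes it. All mice, controls included, had lost their adrenal glands at about 2.5 months of age, and were injected 2 weeks later with PBS or with 1 mg/kg of dexamethasone, a synthetic glucocorticoid. The tissue was taken 6 h after the injection. The 4 groups are called wild-type PBS, wild-type dexamethasone, knockin PBS and knockin dexamethasone. The comparisons ask how the genes responded to dexamethasone in each genotype, and whether the genotypes differed.

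Glutamate is the main excitatory transmitter of the brain. AMPA receptors carry most of the fast current, NMDA receptors admit calcium when the postsynaptic membrane is depolarized, kainate and delta receptors modulate transmission, and metabotropic receptors act through G proteins. Under the membrane, MAGUK proteins (the Dlg genes) bind receptor tails, SAPAP proteins (the Dlgap genes) link MAGUKs to Shank proteins, and Homer proteins tie Shank to metabotropic receptors, while the kinase CaMKII responds to the calcium that NMDA receptors admit. In the hippocampus this machinery is known for its part in synaptic plasticity, the strengthening and weakening of synapses that accompanies learning.

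The libraries held 11493014 to 48267708 read pairs assigned to genes. The lowest count of any of the 37 genes in any library was 98, for Grm8, so no level below rests on a handful of reads. Levels are compared between libraries as CPM (counts scaled to a common library size by the trimmed mean of M values), and between genes only as TPM, which also divides by exonic length. Nr3c1 itself fell after dexamethasone in both genotypes, with a log2 fold change of -0.46 in wild-type and -0.55 in knockin mice. Knockin against wild-type, it stood at 0.26 (SE 0.11) after PBS, with an unadjusted p of 0.026 by edgeR. After dexamethasone the genotype difference was 0.18 (SE 0.11), and neither difference was called. Counts of Nr3c1 do not show which protein forms are made. Markers of all main hippocampal cell classes were present: the summed level of 7 pan-neuronal markers was 6650 to 7493 CPM and overlapped between all groups. Some libraries stood apart in genes of neighbouring tissue. Choroid plexus markers summed to 1731 CPM in wild-type PBS replicate 4 and 1363 CPM in knockin dexamethasone replicate 2, against 31.1 to 575 CPM elsewhere. Oligodendrocyte markers were lowest in wild-type dexamethasone replicate 3, at 3553 CPM, and highest in knockin PBS replicate 3, at 5926 CPM. In bulk tissue, fewer cells of a type and less RNA per cell cannot be told apart.

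Promoter sequences were available from RefSeq (build GRCm38.p6) for 23 of the 37 genes, as 37 windows of 250 bases upstream of a start. They were searched on both strands for the palindromic glucocorticoid response element (AGAACA, 3 bases of any kind, then TGTTCT), its half-site AGAACA, the GC box GGGCGG and the TATA box TATAAA. The half-site lies within the palindrome, so a window with the palindrome counts for both. The palindrome was in 0 of the 37 windows and in 3 of all 32851 windows of the same length, 0.00913%. The half-site was in 3 of the 37 windows, 1 each of Dlg1, Dlg3 and Grm8, and in 16.1% of all windows. These 3 genes also have windows without a half-site. GC boxes were in 17 of the 37 windows and in 32.7% of all, and TATA boxes in 3 of the 37 and in 12.4% of all. A match of letters is a description, not a binding site.

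Shown first are the windows of the 3 genes whose levels after dexamethasone did not overlap those after PBS across all 20 libraries, Grm3, Homer2 and Dlgap1, because the results turn most on them. Homer2 and Dlgap1 have 2 windows each, and the one farther upstream is printed. Capitals mark GC boxes or half-sites on either strand, and each sequence is read 5′ to 3′ along its gene.
Grm3, chr5:9725353-9725602, minus strand: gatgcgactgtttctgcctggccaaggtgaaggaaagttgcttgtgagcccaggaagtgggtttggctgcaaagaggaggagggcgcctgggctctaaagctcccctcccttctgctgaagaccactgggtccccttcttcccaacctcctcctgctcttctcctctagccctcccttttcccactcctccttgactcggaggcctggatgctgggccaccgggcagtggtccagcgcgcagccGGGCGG
Homer2, chr7:81706926-81707175, minus strand: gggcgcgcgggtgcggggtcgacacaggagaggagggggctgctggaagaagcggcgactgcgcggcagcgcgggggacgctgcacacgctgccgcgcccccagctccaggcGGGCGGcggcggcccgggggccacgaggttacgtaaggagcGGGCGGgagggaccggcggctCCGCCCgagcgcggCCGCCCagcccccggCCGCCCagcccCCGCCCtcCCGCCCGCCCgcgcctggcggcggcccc
Dlgap1, chr17:69968823-69969072, plus strand: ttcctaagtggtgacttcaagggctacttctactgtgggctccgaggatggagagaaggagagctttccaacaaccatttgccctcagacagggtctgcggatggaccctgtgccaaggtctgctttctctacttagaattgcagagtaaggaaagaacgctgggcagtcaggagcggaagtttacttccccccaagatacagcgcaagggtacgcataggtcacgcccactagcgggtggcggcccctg
The Grm3 window held 1 GC box, at its 3′ end, the Homer2 window held 8, some of them overlapping, and the Dlgap1 window held no match to either motif. The windows of Dlg1 and Dlg3 follow because these are the genes with a half-site that were called for a response to dexamethasone, Dlg1 downward and Dlg3 upward.
Dlg1, chr16:31695298-31695547, plus strand: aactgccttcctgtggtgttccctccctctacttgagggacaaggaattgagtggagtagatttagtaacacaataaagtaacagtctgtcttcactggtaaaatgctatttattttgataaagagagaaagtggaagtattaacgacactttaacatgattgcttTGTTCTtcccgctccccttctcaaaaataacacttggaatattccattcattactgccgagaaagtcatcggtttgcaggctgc
Dlg3, chrX:100774245-100774494, plus strand: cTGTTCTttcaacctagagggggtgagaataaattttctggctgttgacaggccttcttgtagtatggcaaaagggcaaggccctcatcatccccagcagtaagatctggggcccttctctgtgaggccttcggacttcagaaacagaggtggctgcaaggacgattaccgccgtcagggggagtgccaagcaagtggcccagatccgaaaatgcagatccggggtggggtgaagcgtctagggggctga
In both windows the half-site reads TGTTCT, its form on the opposite strand. Dlg1 and Dlg3 also have windows without a half-site, which are not printed. For the printed Grm3, Dlg1 and Dlg3 windows, the sequence just downstream was not found near the start of an annotated transcript of the gene.

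The kinase genes Camk2a and Camk2b had the highest levels per length of the 37, at 2596 ± 193 and 919 ± 99.4 TPM (mean ± SD, n = 20 libraries). Gria1 followed at 596 ± 45.4 TPM, and these first 3 ranges did not overlap with each other or with the next gene. From Gria2 at 258 TPM downward, neighbours in the order mostly could not be separated: 30 of all 36 neighbouring pairs had overlapping ranges. Grin1, the obligatory NMDA receptor subunit, lay at 231 TPM beside Dlgap1 at 231 TPM and Dlg4, which encodes the scaffold PSD-95, at 226 TPM. At the low end were Grik1 at 8.51 TPM, Grm4 at 6.70 TPM, Grin2d at 6.51 TPM and Grm8 at 5.44 TPM. In all, 15 genes averaged at least 100 TPM and 0 averaged under 5 TPM.

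**Figure D1:**
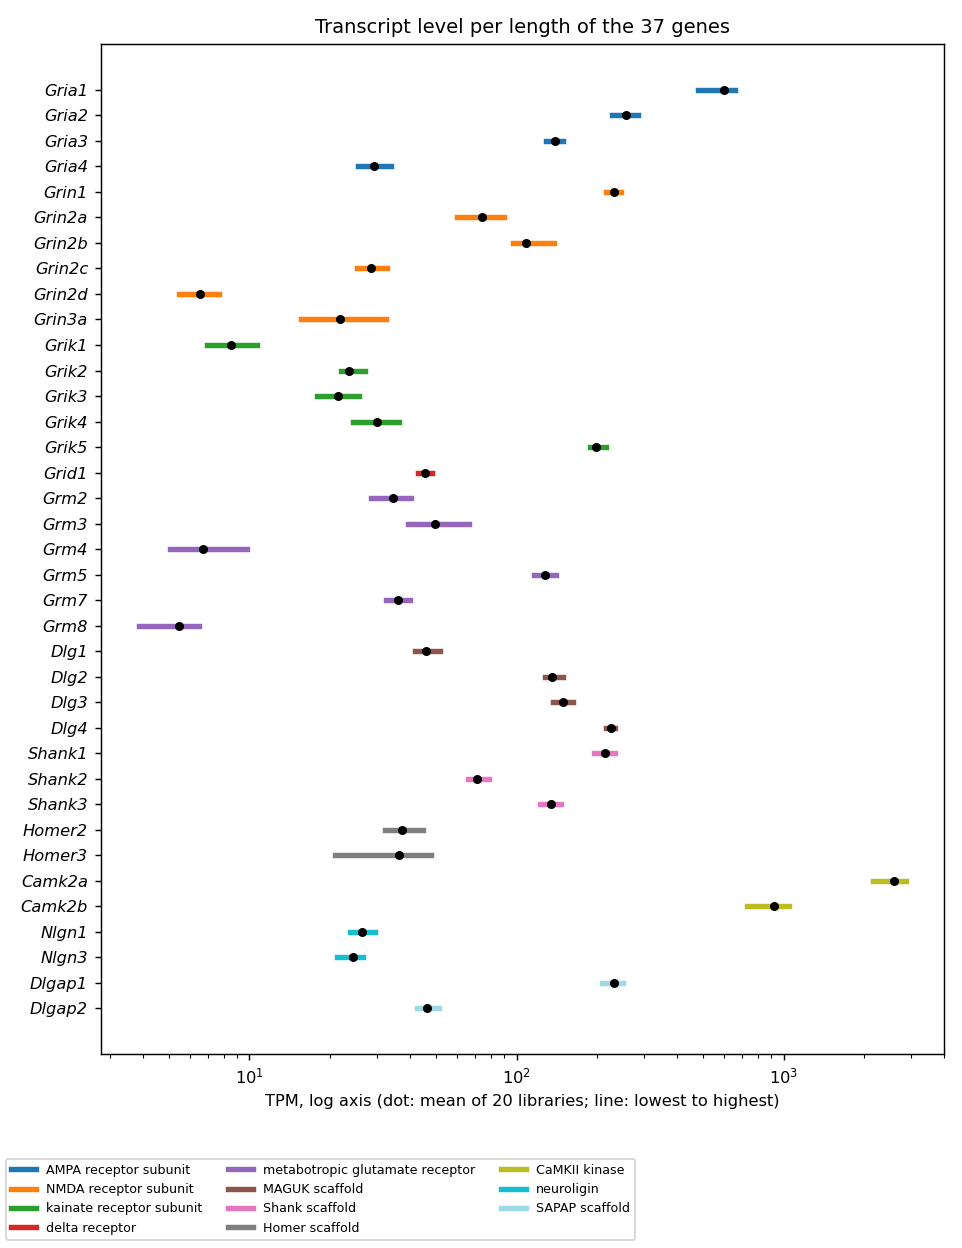
Level per exonic length (TPM, log axis) of each of the 37 genes, coloured by role, with the mean of 20 libraries as a dot and the lowest to highest library as a line. Camk2a lies highest at 2596 TPM and Grm8 lowest at 5.44 TPM, and the widest lines for their level are those of Grin3a, Homer3, Grm4 and Grm3.

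Each family was led by 1 gene when its TPM were expressed as shares. The length in TPM is that of all annotated exons of a gene, not of the transcripts made in this tissue. It was 5786 bases for Gria1 and 10486 for Gria2, and 12013 for Dlg4 and 5287 for Dlg3. The shares depend on these lengths and do not give the subunit composition of receptors. Among AMPA subunits, Gria1 (GluA1) made up 58.3% ± 1.53, Gria2 (GluA2, the subunit whose edited form blocks calcium entry) 25.2% ± 0.585, Gria3 13.6% ± 0.944 and Gria4 2.86% ± 0.306 (SD, n = 20). Of the GluN2 subunits, which set the kinetics of NMDA receptors, Grin2b gave 49.9% ± 2.14, Grin2a 34.1% ± 2.17, Grin2c 13.1% ± 1.19 and Grin2d 3.01% ± 0.366. The kainate family was led by Grik5 with 70.3% ± 1.18, a subunit that needs a partner such as Grik2 to form a channel, and Grik2 held 8.40% ± 0.394. Grm5, the only group I metabotropic receptor on the list, held 49.2% ± 2.59 of the metabotropic share, and Grm3 held 19.0% ± 2.90. Of the scaffolds, Dlg4 held 40.6% ± 0.980 of the MAGUK genes and Shank1 50.9% ± 0.845 of the Shank genes.

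Dexamethasone changed 6 of the 37 genes in wild-type mice at an adjusted p under 0.05 in edgeR's quasi-likelihood test, 5 upward and 1 downward. Over all 18648 genes the share called in that comparison was 9.21%, with 5.27% higher and 3.94% lower. In knockin mice 3 of the 37 were called, 2 upward and 1 downward, against 10.0% of all genes (5.28% higher and 4.71% lower). The mean of the responses in the 2 genotypes was taken from the same fit to all 20 libraries, as a contrast of all 4 groups. For this mean, 10 of the 37 were called, 7 upward and 3 downward, against 18.2% of all genes (9.79% higher and 8.41% lower). In wild-type and knockin mice alike, Grm3 was lower and Homer2 and Dlgap1 were higher. Grin2a, Dlg2 and Shank2 were called in wild-type mice and in the mean, and Gria2, Dlg3, Grin3a and Dlg1 in the mean alone. Dexamethasone and PBS libraries did not overlap for 6 of the 37 genes in wild-type mice, against 8.22% of all genes, and for 4 of the 37 in knockin mice, against 8.68%. Counting genes at an unadjusted p under 0.05 gave 9, 8 and 14 of the 37 in the 3 comparisons, against 19.9%, 20.8% and 28.9% of all genes.

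The changes were small. The median log2 fold change of the 37 genes was 0.06 in wild-type mice, with 28 of 37 values above 0, and 0.02 in knockin mice, with 21 of 37 above 0. Over all genes the medians were -0.00 and 0.00. The 37 values ran from -0.38 to 0.21 in wild-type and from -0.47 to 0.23 in knockin mice, so that no gene moved by as much as 0.5 on the log2 scale. Scaling by library totals alone, without trimming, left 2 higher and 2 lower calls in wild-type mice and 5 higher and 3 lower in the mean.

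**Figure D2:**
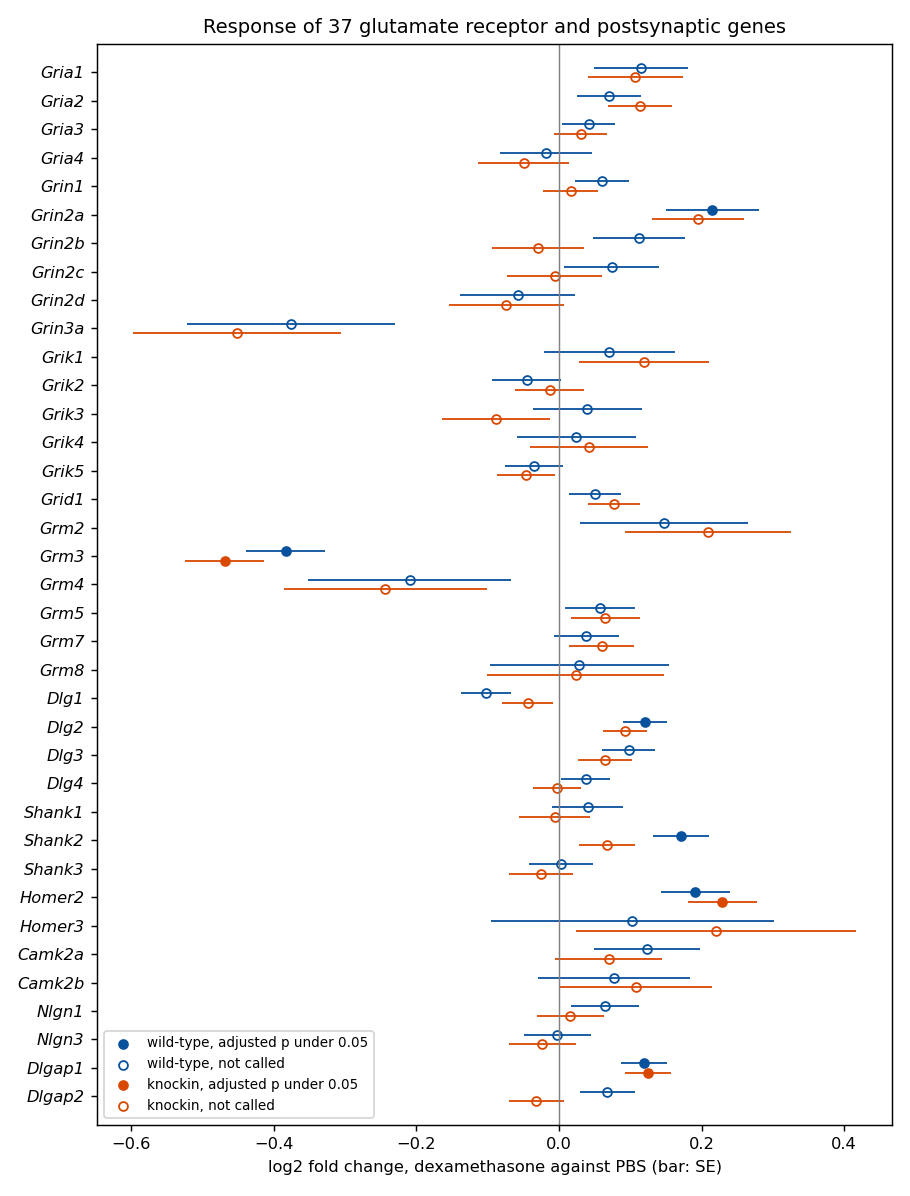
Log2 fold change after dexamethasone against PBS for each of the 37 genes in wild-type (blue) and knockin (orange) mice, with SE bars and filled points where the adjusted p was under 0.05. Grm3 lies at -0.38 and -0.47 and Homer2 at 0.19 and 0.23, and Grin3a lies far to the left with wide bars and open points in both genotypes.

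Of the ionotropic receptors, the AMPA genes were not called in either genotype alone. Gria2 passed for the mean response, with a log2 fold change of 0.09 (SE 0.03) and an adjusted p of 0.0406 by edgeR. Its wild-type groups held 836 to 954 CPM after PBS and 884 to 994 CPM after dexamethasone, and its knockin groups 810.2 to 936 and 931 to 1014 CPM, ranges that overlap in both genotypes. The Gria2 call was lost in 11 of the 20 fits that left out 1 library, with adjusted p-values up to 0.111. Gria1 had a larger mean response of 0.11 (SE 0.05) that did not pass, at an adjusted p of 0.113, and its libraries spread more widely, from 938 to 1276 CPM. Gria3 and Gria4 gave 0.04 (SE 0.03) and -0.03 (SE 0.05) and were not called.

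Grin2a, which encodes the GluN2A subunit that is prominent at mature synapses, was higher after dexamethasone in wild-type mice. The 5 wild-type PBS libraries held 382, 368, 324, 369 and 337 CPM, and the 5 wild-type dexamethasone libraries held 392, 386, 412, 416 and 459 CPM, in replicate order. Every dexamethasone library was above every PBS library, by a narrow margin between PBS replicate 1 and dexamethasone replicate 2. The log2 fold change was 0.21 (SE 0.07), with an adjusted p of 0.0405 by edgeR. That call was lost when wild-type PBS replicate 2, 3 or 5 or wild-type dexamethasone replicate 3, 4 or 5 was left out, with adjusted p-values up to 0.135. In the knockin the PBS libraries held 354, 318, 302, 387 and 381 CPM and the dexamethasone libraries 410.0, 423, 365, 398 and 397 CPM. These groups overlap, since PBS replicates 4 and 5 lay above dexamethasone replicate 3. The knockin fold change was 0.19 (SE 0.07) with an adjusted p of 0.0635, and the mean over genotypes, 0.20 (SE 0.05) with an adjusted p of 0.00256, passed in all 20 fits that left out 1 library.

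Grin3a encodes GluN3A, a subunit that lowers calcium entry through NMDA receptors and is best known from young synapses. Over the 20 libraries, PBS and dexamethasone together, it had the largest coefficient of variation of the 37 genes, 22.4% in TPM. This value includes any difference between treatments. Within the wild-type and knockin PBS groups, Homer3 varied more in CPM, at 26.2% and 27.7% against 15.5% and 20.4% for Grin3a. Within the dexamethasone groups Homer3 varied less, at 8.9% and 12.7% against 9.0% and 17.7% for Grin3a. The wild-type PBS libraries held 59.9, 52.6, 79.5, 64.8 and 61.9 CPM and the wild-type dexamethasone libraries 49.1, 44.2, 52.7, 54.4 and 45.4 CPM. In the knockin the PBS libraries held 64.1, 79.1, 72.5, 46.6 and 55.6 CPM and the dexamethasone libraries 44.8, 39.8, 60.9, 42.1 and 46.0 CPM. The ranges overlap in both genotypes. The fold changes were -0.38 (SE 0.15) and -0.45 (SE 0.15), neither called, with adjusted p-values of 0.14 and 0.0612. For the mean response Grin3a fell, with -0.41 (SE 0.10) and an adjusted p of 0.00838 by edgeR, and passed in all 20 fits without 1 library. Grin1, Grin2b, Grin2c and Grin2d were not called in any comparison, with mean responses of 0.04 (SE 0.03), 0.04 (SE 0.05), 0.03 (SE 0.05) and -0.07 (SE 0.06).

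The 5 kainate receptor genes and the delta receptor gene Grid1 were not called in any comparison. Mean responses of the kainate genes ran from -0.04 for Grik5 to 0.09 for Grik1. Grid1 gave 0.06 (SE 0.03) with an adjusted p of 0.0865, and its level was steady, at 83.3 to 94.4 CPM over all libraries. Grik4, also a marker of CA3 pyramidal neurons, held 60.9 ± 6.59 CPM after PBS and 61.8 ± 4.17 CPM after dexamethasone in wild-type mice (SD, n = 5).

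Grm3 had the lowest adjusted p of the 37 genes in both genotypes. It encodes mGlu3, a receptor that inhibits adenylyl cyclase and is made by astrocytes as well as neurons. In wild-type mice the PBS libraries held 56.3, 52.7, 64.9, 52.6 and 59.4 CPM and the dexamethasone libraries 47.5, 43.5, 42.9, 43.2 and 42.4 CPM. Knockin PBS libraries held 57.2, 61.5, 68.1, 61.5 and 56.2 CPM and knockin dexamethasone libraries 43.6, 45.3, 44.3, 45.7 and 41.3 CPM. All 10 PBS libraries were above all 10 dexamethasone libraries. A separation of this kind over both genotypes was seen for 3 of the 37 genes (Grm3, Homer2 and Dlgap1) and for 3.90% of all genes. The log2 fold change of Grm3 was -0.38 (SE 0.06) in wild-type and -0.47 (SE 0.06) in knockin mice, with adjusted p-values of 2.05e-05 and 8.51e-07 by edgeR. Its share of the metabotropic TPM went from 21.0% ± 1.43 to 16.4% ± 0.925 in wild-type and from 22.3% ± 1.35 to 16.4% ± 0.661 in knockin mice (SD, n = 5). The Grm3 call held in every fit that left out 1 library.

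Astrocyte markers are given beside Grm3 because astrocytes make it. The summed level of 6 astrocyte markers overlapped between all groups, at 2204 to 2578 CPM. Single markers moved in opposite directions, with Aqp4 at -0.41 and Aldh1l1 at 0.56 for the mean response. Oligodendrocyte precursor markers summed to 190.1 to 219.8 CPM after PBS and 218.9 to 253.7 CPM after dexamethasone, with 4 of 5 called higher, and microglial markers to 278 to 326 CPM and 246 to 272 CPM, with 2 of 5 called lower and 2 called higher. Of 6 oligodendrocyte markers, 1 was called higher and 2 lower, with log2 fold changes of the 6 from -1.20 to 0.43. Their sums overlapped between groups. These calls are for the mean response, in which 18.2% of all genes were called. The part of these markers in the Grm3 result was not tested.

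The other metabotropic receptors were not called. Grm2, a presynaptic receptor related to Grm3, had a mean response of 0.18 (SE 0.08) and an adjusted p of 0.163, opposite in sign to Grm3. Its PBS libraries spread widely, over 44.3 to 60.4 CPM in wild-type and 46.1 to 63.1 CPM in knockin mice. Grm4 gave -0.23 (SE 0.10) with an adjusted p of 0.138 at a low level, 9.72 to 18.5 CPM. Grm5, which acts through phospholipase C, gave 0.06 (SE 0.03), Grm7 gave 0.05 (SE 0.03) and Grm8 gave 0.03 (SE 0.09).

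**Figure D3:**
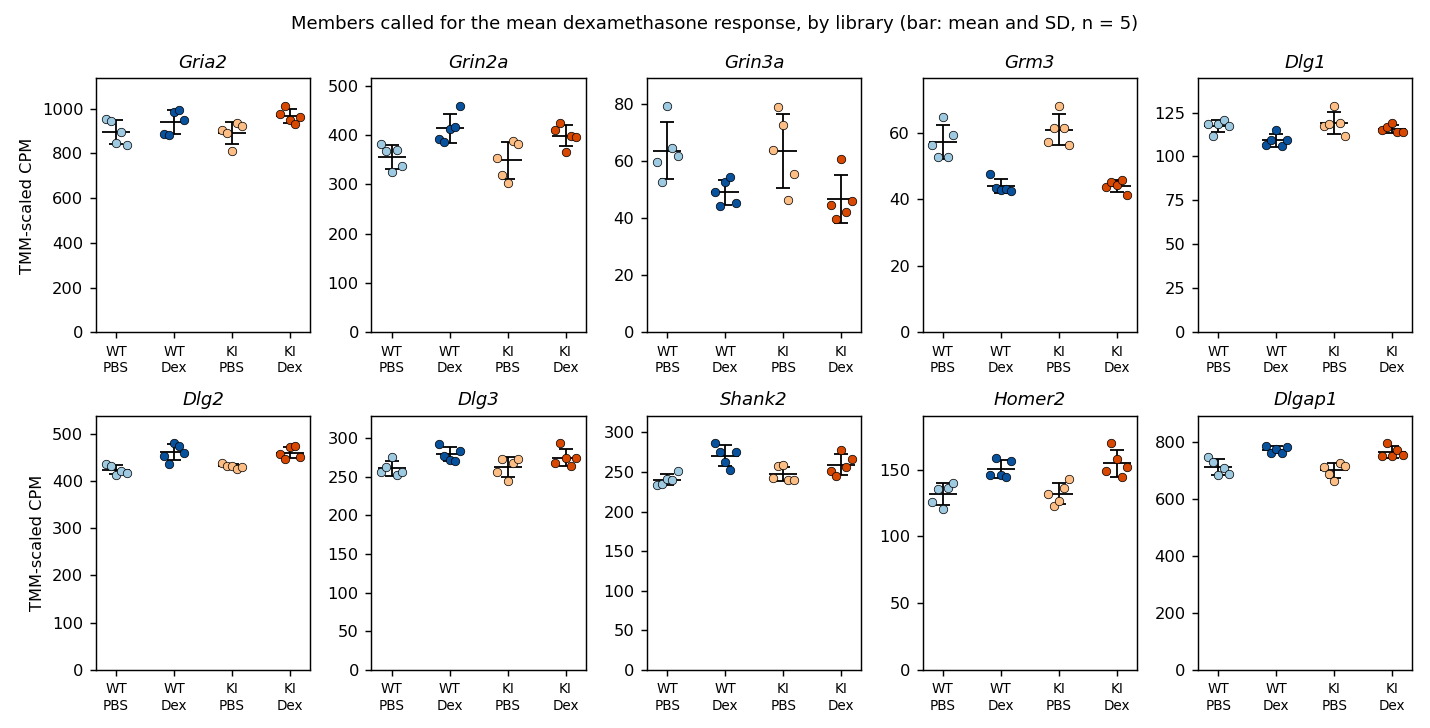
CPM of the 10 genes called for the mean dexamethasone response, with 1 point per library, the mean and SD of each group of 5, and vertical axes that start at 0. All PBS libraries separate from all dexamethasone libraries for Grm3, Homer2 and Dlgap1. Dlg2 separates within each genotype, and Grin2a and Shank2 in wild-type mice alone. The points of Gria2, Dlg1, Dlg3 and Grin3a overlap between PBS and dexamethasone in both genotypes.

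Homer2 had the largest mean response of the scaffold genes, 0.21 (SE 0.03). The protein binds group I metabotropic receptors and Shank. Wild-type PBS libraries held 126, 136, 121, 137 and 140.2 CPM and wild-type dexamethasone libraries 146, 159, 146, 144 and 156 CPM. The knockin values were 132, 122, 127, 136 and 143 CPM after PBS and 149, 170.1, 158, 144 and 152 CPM after dexamethasone. Every dexamethasone library was above every PBS library of both genotypes. The fold changes were 0.19 (SE 0.05) and 0.23 (SE 0.05), with adjusted p-values of 0.0105 in wild-type and 0.00177 in knockin mice by edgeR. The wild-type call was lost without wild-type PBS replicate 3, at an adjusted p of 0.0581. Homer3, whose exons share 30.7% of their bases with Ddx49 on the opposite strand, gave 0.10 (SE 0.20) and 0.22 (SE 0.20) and was not called.

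Dlgap1 encodes a SAPAP protein that joins MAGUK and Shank scaffolds. Its wild-type PBS libraries held 748, 729, 685, 707 and 687 CPM and its wild-type dexamethasone libraries 785, 762, 774, 759 and 782 CPM. In the knockin it held 711, 686, 662, 727 and 716 CPM after PBS and 751, 796, 749, 770.0 and 754 CPM after dexamethasone. The groups did not overlap in either genotype, although the change was under 10%, with fold changes of 0.12 (SE 0.03) and 0.13 (SE 0.03) and adjusted p-values of 0.0155 and 0.00975 by edgeR. The wild-type call was lost without wild-type PBS replicate 3 or 5, with adjusted p-values up to 0.0794. Dlgap2 gave 0.07 (SE 0.04) and -0.03 (SE 0.04) and was not called.

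Among the MAGUK genes, Dlg2, which encodes PSD-93, was higher. Wild-type PBS libraries held 436.8, 431.9, 413.4, 420.7 and 417.2 CPM and wild-type dexamethasone libraries 453.3, 436.8, 480.7, 473.7 and 460.0 CPM, so that the highest PBS and the lowest dexamethasone library met at 436.8 CPM. Knockin libraries held 439.2, 431.8, 431.7, 425.6 and 428.8 CPM after PBS and 456.5, 447.2, 472.3, 473.7 and 450.8 CPM after dexamethasone, without overlap. The fold change was 0.12 (SE 0.03) in wild-type mice, with an adjusted p of 0.0102 by edgeR, and 0.09 (SE 0.03) in knockin mice, where the adjusted p of 0.0529 missed the threshold. Dlg3 (SAP102) rose and Dlg1 (SAP97) fell in the mean response, with log2 fold changes of 0.08 (SE 0.03) and -0.07 (SE 0.03) and adjusted p-values of 0.0342 and 0.042. These 2 calls were lost in 8 and 14 of the 20 fits that left out 1 library, with adjusted p-values up to 0.0815 and 0.103. Dlg4, the most abundant MAGUK gene, had the lowest coefficient of variation of the 37 genes, 2.20% in TPM, and a mean response of 0.02 (SE 0.02).

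Shank2 was called in wild-type mice. Its PBS libraries held 234.2, 234.7, 240.6, 240.2 and 251.9 CPM and its dexamethasone libraries 286.7, 274.8, 263.1, 252.2 and 275.5 CPM, with a narrow gap between PBS replicate 5 and dexamethasone replicate 4. In the knockin the values were 242.1, 257.1, 258.5, 240.1 and 240.1 CPM after PBS and 251.0, 245.4, 278.1, 256.0 and 267.0 CPM after dexamethasone, which overlap. The fold change was 0.17 (SE 0.04) with an adjusted p of 0.00416 in wild-type and 0.07 (SE 0.04) with an adjusted p of 0.347 in knockin mice. The difference between the 2 responses was -0.10 (SE 0.06), with an unadjusted p of 0.0733 and an adjusted p of 1 by edgeR, so that the genotypes were not shown to differ. Shank1 and Shank3 were not called, with mean responses of 0.02 (SE 0.04) and -0.01 (SE 0.03).

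The CaMKII genes, the most abundant of the 37, gave mean responses of 0.10 (SE 0.05) for Camk2a and 0.09 (SE 0.08) for Camk2b and were not called. In wild-type mice Camk2a went from 4736 ± 388 CPM after PBS to 5160.0 ± 211 CPM after dexamethasone (SD, n = 5), with overlapping ranges. The neuroligins Nlgn1 and Nlgn3, adhesion proteins that reach across the synaptic cleft, gave 0.04 (SE 0.03) and -0.01 (SE 0.03) and were not called. Exons of Nlgn3 share 44.6% of their bases with another annotated gene on the same strand, Gm21986, and those of Grin1 share 29.9% with the antisense gene Grin1os, so their counts are uncertain to that extent.

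Some of the 37 genes had their highest or lowest levels in the same few libraries. Homer3 was lowest in wild-type PBS replicate 3 at 20.5 CPM, knockin PBS replicates 2 and 3 at 26.6 and 20.2 CPM, and knockin dexamethasone replicate 3 at 30.0 CPM. Camk2b was lowest in the same 4 libraries, at 1130, 1219, 1094 and 1191 CPM, against 1252 to 1608 CPM in the other 16. Grin3a went the other way, with 79.5, 79.1, 72.5 and 60.9 CPM in these libraries and 39.8 to 64.8 CPM elsewhere. Of the 4, 3 were PBS libraries and 1 was a dexamethasone library. Without all 4, a choice made after the values were seen, 7 of the 37 genes were called in wild-type mice, 2 in knockin mice and 8 in the mean. Grin2a, Grin3a, Grm3, Dlg2, Dlg3, Shank2, Homer2 and Dlgap1 were still called in that mean, and Gria2 and Dlg1 were not. In knockin mice, which keep 7 of 10 libraries, Homer2 and Dlgap1 were then not called, at adjusted p-values of 0.0666 and 0.149.

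**Figure D4:**
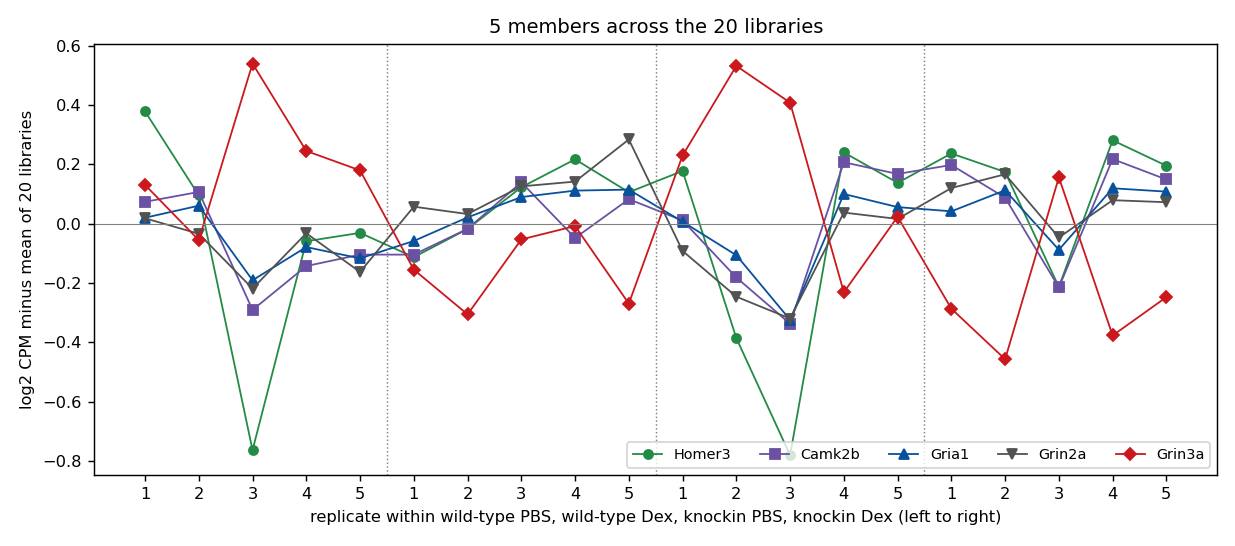
Log2 CPM of Homer3, Camk2b, Gria1, Grin2a and Grin3a in each of the 20 libraries, as the difference from the mean of the 20, with dotted lines between the 4 groups of 5. Homer3 drops to 20.5 and 20.2 CPM in wild-type PBS replicate 3 and knockin PBS replicate 3, where Grin3a is high at 79.5 and 72.5 CPM.

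Subunit ratios were tested across libraries by exact two-sided permutation tests, for 3 ratios in 4 comparisons, with Benjamini-Hochberg adjustment over the 12. The log2 ratio of Grin2b to Grin2a was 0.67 ± 0.18 in knockin PBS and 0.44 ± 0.04 in knockin dexamethasone libraries (SD, n = 5), a difference of -0.23. The values were 0.63, 0.89, 0.84, 0.51 and 0.50 after PBS and 0.46, 0.40, 0.50, 0.44 and 0.43 after dexamethasone. The groups did not overlap but all but met, with PBS replicate 5 at 0.5007 and dexamethasone replicate 3 at 0.5004. The exact permutation p was 0.00794, the smallest that 5 against 5 libraries can give, and 0.0952 after adjustment. Over 12 tests, 1 ratio alone at this smallest p is always adjusted to 0.0952. The adjusted test therefore could not pass this ratio alone and does not decide whether it differed. In wild-type mice the same difference was -0.11, with an exact permutation p of 0.167 (adjusted 0.548). The ratio was highest in knockin PBS replicates 2 and 3 and wild-type PBS replicate 3, the libraries named above. The ratios of Gria2 to Gria1 and of Camk2b to Camk2a differed by -0.05 to 0.06 in the 4 comparisons, with adjusted exact permutation p-values of at least 0.548.

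**Figure D5:**
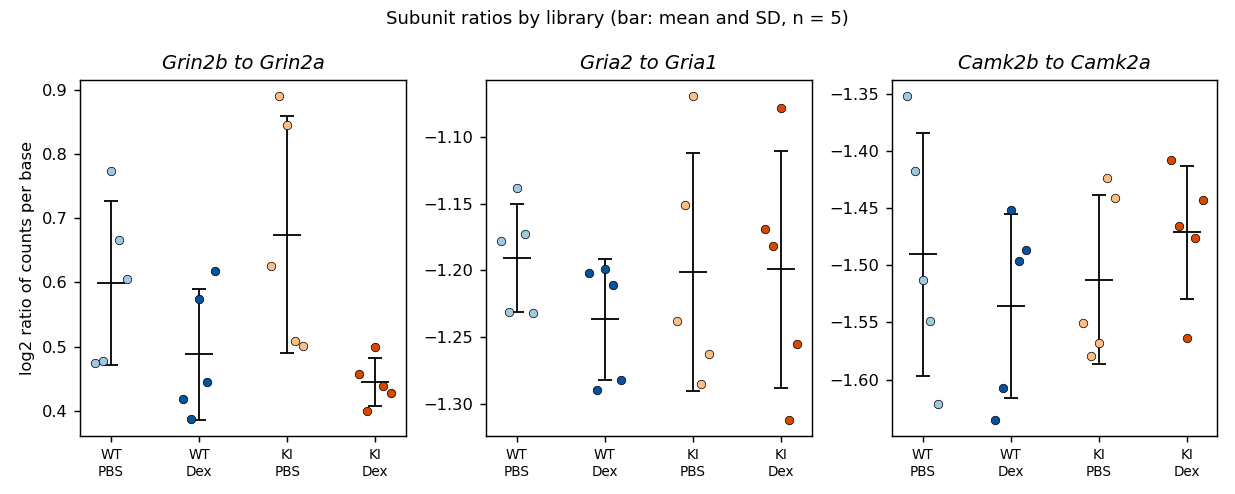
Log2 ratios of counts per exonic base for Grin2b to Grin2a, Gria2 to Gria1 and Camk2b to Camk2a, 1 point per library with the mean and SD of each group of 5, and a vertical axis of its own in each panel that does not start at 0. In the first panel the knockin PBS points spread from 0.50 to 0.89 and the knockin dexamethasone points from 0.40 to 0.50.

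Knockin and wild-type mice did not differ in any of the 37 genes at an adjusted p under 0.05, either after PBS or after dexamethasone, and 0 of 18648 genes passed in either comparison or for the difference of responses (percent called 0.00 in each). DESeq2 and limma-voom also called 0 of the 37. At an unadjusted p under 0.05 there were 0 of the 37 after PBS, 1 after dexamethasone and 0 for the difference of responses, against 3.61%, 4.44% and 2.83% of all genes. The 1 was Dlg1, at 0.08 (SE 0.04) with an unadjusted p of 0.0287. After PBS the knockin minus wild-type values ran from -0.08 for Grik1 to 0.11 for Grik3, and after dexamethasone from -0.10 for Grin2b to 0.09 for Grm2. In no gene of the 37 did the genotypes separate without overlap, against 0.670% of all genes after PBS and 0.788% after dexamethasone.

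The intervals show how far a difference could go unseen. For Grm3 the dexamethasone response in knockin minus that in wild-type mice was -0.09 (SE 0.08), with a 95% interval of -0.25 to 0.08. For Dlgap1 it was 0.01 (SE 0.05), with an interval of -0.09 to 0.10, and for Homer2 0.04 (SE 0.07), with -0.10 to 0.18. The interval was far wider for Grin3a, at -0.51 to 0.36, and for Homer3, at -0.47 to 0.71.

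Other genes of the synapse were followed through 3 lists. Over all genes, the shares called were 18.2% in the mean response, 9.21% in wild-type mice and 10.0% in knockin mice. Of 25 genes for auxiliary subunits and partners of the receptors, 2 were higher and 1 lower in the mean response. These were Shisa7 at 0.21 (SE 0.05) and Cnih3 at 0.09 (SE 0.03), both AMPA receptor auxiliary proteins, and Cacng4 at -0.11 (SE 0.04), a transmembrane AMPA receptor regulator. In wild-type mice 1 of the 25 was called, Cnih3, and in knockin mice 0 were, with 5 of the 25 at an unadjusted p under 0.05, a threshold that 20.8% of all genes passed there. Of 40 other postsynaptic genes, 9 were higher and 1 lower in the mean response, with adjusted p-values of 2.05e-05 to 0.0421 by edgeR. Among the 9 were Anks1b at 0.15 (SE 0.02) and Magi2 at 0.15 (SE 0.02), both scaffolds, and Kalrn at 0.19 (SE 0.04), an exchange factor that acts on the actin of dendritic spines. The 1 lower gene was Camk2g at -0.10 (SE 0.03). The count was 3 higher and 0 lower in wild-type mice and 2 higher and 1 lower in knockin mice. The median log2 fold changes of the mean response were 0.02 for both lists.

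Of 18 genes for glutamate transport and metabolism, 2 were higher and 3 lower, the same count in wild-type mice, in knockin mice and in the mean. Over all genes, 9.21%, 10.0% and 18.2% were called in these comparisons. Glul, the glutamine synthetase with which astrocytes convert glutamate to glutamine, stood at 1451 ± 125 CPM after PBS and 2030.0 ± 112 CPM after dexamethasone in wild-type mice, and at 1463 ± 143 and 2165 ± 114 CPM in knockin mice (SD, n = 5). Its mean response was 0.52 (SE 0.04), with an adjusted p of 1.38e-08 by edgeR. Slc38a2, a carrier of neutral amino acids including glutamine, rose by 0.46 (SE 0.08). Lower were Slc1a4, a neutral amino acid carrier, at -0.32 (SE 0.03), Slc38a3, an astrocytic glutamine carrier, at -0.47 (SE 0.08), and Slc7a11, the cystine and glutamate exchanger, at -0.50 (SE 0.07). In size, each of these 5 mean responses was larger than that of every one of the 37 receptor and scaffold genes except Grm3 and Grin3a. Slc1a2, the main astrocytic glutamate carrier, was not called, at 0.03 (SE 0.02).

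Single markers of neighbouring brain regions were called in the mean response, some higher and some lower. Striatal markers summed to 51.9 to 69.4 CPM after PBS and 70.0 to 88.3 CPM after dexamethasone, with Ppp1r1b called higher, Adora2a called lower and Drd1 and Drd2 not called. Thalamic markers summed to 79.4 to 97.7 CPM and 97.2 to 120.1 CPM, with Rora the 1 of 5 called. The 5 cortical markers overlapped between groups in their sum, and Rorb was lower at -0.94. Of 4 cerebellar markers tested, 1 was called lower, and their sums overlapped between groups. Of 7 pan-neuronal markers 0 were called in the mean response, as were 0 of 5 CA1 and 0 of 6 CA2 and CA3 markers. Over all genes, 18.2% were called in the mean response and 28.9% had an unadjusted p under 0.05. Of 6 dentate granule neuron markers, Tdo2 was called higher at 0.31 and C1ql2 and Plk5 lower at -0.28 and -0.47, and 5 of the 6 had an unadjusted p under 0.05. Dsp, of the same list, stood at 49.4 ± 14.7 CPM after PBS and 76.2 ± 8.93 CPM after dexamethasone in wild-type mice and at 53.3 ± 25.7 and 74.9 ± 13.0 CPM in knockin mice (SD, n = 5), and was not called. The dentate sums overlapped between groups, at 368 to 537 CPM after PBS and 432 to 513 CPM after dexamethasone. Of 7 interneuron markers 1, Gad2, was called higher at 0.13, and their sums overlapped at 653 to 716 CPM and 663 to 775 CPM. The part of tissue composition in the responses of the 37 genes was not tested. Without the 2 libraries richest in choroid plexus markers, 5 of the 37 genes were called in wild-type mice, 3 in knockin mice and 7 in the mean, and the calls lost were Grin2a in wild-type mice and Gria2, Dlg1 and Dlg3 in the mean. Without wild-type PBS replicates 1 and 2, the highest in the liver transcript Alb at 121 and 71.9 CPM, 4 were called in wild-type mice, Homer2 and Shank2 being lost, and 12 in the mean.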

How the data were processed

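Hippocampal poly(A) RNA of 20 mice was sequenced as 75-base read pairs. The authors deposited 1 table of counts per library: whole-number counts of read pairs per gene, not normalized, made with featureCounts 2.0.6 on the GENCODE M34 annotation without a strand setting, per the file headers. Reads were aligned with STAR 2.5.1 to mm39, and Subread 1.5.1 and DESeq2 1.38.3 are also listed, per the submitters' processing notes. Counting without strand cannot separate overlapping genes on opposite strands.

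Identifiers were matched to symbols for 51884 of 57126 genes. Counts were fitted with edgeR 4.0.16 (limma 3.58.1, R 4.3.3): TMM scaling, the filterByExpr filter (minimum count 10), all 20 libraries, 1 coefficient per group and the robust quasi-likelihood test. P-values were adjusted by Benjamini-Hochberg over the 18648 genes kept, and a gene was called at an adjusted p under 0.05. The biological coefficient of variation was 7.08%. The fit was tested on simulated counts. Alternatives were other scalings, filters, DESeq2 1.42.0, limma-voom, a replicate block and libraries left out.

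No pair of replicates agreed within sampling noise (chi-square per gene at least 2.56). Deviations of samples of equal replicate number in different groups correlated at -0.108 to 0.249, over 0.1 in 4 of 20. The labels do not say whether the number marks a shared litter or day. Libraries were treated as unpaired, with the replicate block as an alternative. The 37 genes and the other lists were chosen with earlier results of these data known. All 37 genes could be named, and others only if on a pathway list and called, or as markers; Slc1a2 was added after its values were seen. Promoters are RefSeq windows of GRCm38.p6, gene positions in the count files are mm39, and the 2 were not mixed.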

Additional observations from a re-analysis of the deposited data

Results flagged for a closer look

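In 5 of 160 groups of 5 libraries (37 genes and 3 ratios in 4 groups each), 1 library lay far from the other 4 by Dixon's test, where chance gives about 1 in 20. Grin2b stood at 976 CPM in knockin PBS replicate 2, with the others at 893.7 to 912.7 CPM. Grm3 stood at 47.5 CPM in wild-type dexamethasone replicate 1, with the others at 42.4 to 43.5 CPM, which is still below every PBS library. Grm7 stood at 56.1 CPM in wild-type dexamethasone replicate 3 (others 52.2 to 53.0 CPM) and at 48.1 CPM in knockin PBS replicate 4 (others 52.2 to 53.6 CPM). Homer3 stood at 30.0 CPM in knockin dexamethasone replicate 3, with the others at 39.2 to 42.2 CPM.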

How the results depend on the processing

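The number of the 37 genes called for the mean response was 10 and ran from 7 to 12 over the alternatives, within 1.5 times. In wild-type mice 6 were called and 3 without a filter on low counts, where Dlg2, Dlgap1 and Grin2a were lost; leaving out 1 library gave 3 to 6, with 3 without wild-type PBS replicate 3. In knockin mice 3 were called, 6 by DESeq2, 5 by limma-voom and 5 with a replicate block; leaving out 1 library gave 3 to 5, with 5 without knockin PBS replicate 4 or knockin dexamethasone replicate 3. The genes gained were Grin2a and Grin3a, with Dlg2 by DESeq2. With the replicate block, 6 were called in wild-type mice, 10 in the mean and 0 in the genotype comparisons. The labels do not say what the replicate number marks. In all, 4 of 20 samples correlated best with their own number, the share that a random choice among 5 numbers gives. The genotype counts stayed at 0 under all alternatives run. Fold changes of single genes were followed only for genes called in at least 1 fit of a comparison, with 1 value per gene and alternative. Of these values 0 reversed sign, 69 lost and 29 gained a call, and 666 did neither. Genes never called in a comparison were left out, so the count does not cover changes near 0. The causes were not tested.

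Ratio differences that changed sign were small, and none passed. Camk2b to Camk2a after dexamethasone in wild-type mice was 0.017 with medians and 0.025 without wild-type PBS replicates 1 and 2. Without the same libraries, knockin against wild-type PBS gave 0.048 for Camk2b to Camk2a and -0.0078 for Grin2b to Grin2a. Gria2 to Gria1 after dexamethasone in knockin mice was -0.0023 without the choroid plexus libraries. Leaving out 1 library, the ranges were -0.028 to 0.035 for that ratio, and for knockin against wild-type PBS -0.044 to 0.0099 for Gria2 to Gria1 and -0.055 to 0.012 for Camk2b to Camk2a.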
